A study of Homo sapiens with 6 samples.

Results

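Splicing of pre-mRNA is carried out by the spliceosome, which is built from small nuclear ribonucleoprotein particles, the snRNPs. Each snRNP pairs a short nuclear RNA with a ring of Sm or Sm-like (LSM) proteins and with proteins of its own, among them the SF3A and SF3B complexes of the U2 particle and the PRPF proteins that shape the catalytic centre. SR proteins (SRSF) mostly promote the use of the exons they bind, heterogeneous nuclear ribonucleoproteins (HNRNP) coat nascent transcripts and often silence sites, and both respond to the state of the cell. The genes described here are those whose array probe sets carry a single gene symbol that begins SNRP, SF3A, SF3B, SRSF, PRPF, HNRNP or LSM, without SNRPC and without pseudogenes. The letters matched 77 of the 19775 genes that have a probe set of their own. Of these, 73 are protein-coding genes of the 7 families: 11 SNRP, 3 SF3A, 6 SF3B, 10 SRSF, 11 PRPF, 19 HNRNP and 13 LSM genes. The other 4 share only the letters: the noncoding RNA genes HNRNPD-DT and SNRPF-DT and the membrane protein genes LSMEM1 and LSMEM2. Each gene was read from its brightest probe set, and 72 of the 73 passed the filter on low signals. The exception was SNRPN, an SmB relative expressed mainly in brain, whose only probe set with a single symbol lay below the filter. A further 25 probe sets name one of these symbols together with another gene, and they were not used.

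The cells were SKOV3, a long-established line of human ovarian cancer. Their RNA was taken 24 h after transfection of either miR21 precursor, at 5 nM, on 3 arrays, or a precursor serving as negative control, likewise on 3 arrays of 54675 probe sets each. The study's title links miR-21 from stromal cells to taxol resistance. Both groups carry the replicate numbers 1, 2 and 3, and a difference within a number sets the miR21 array against the control array of the same number. Untransfected cells were not analysed here, and both groups are 1 cell line. Of 13 markers of ovarian carcinoma or epithelial cells, 11 were above the filter, with MUC16 and CLDN4 below it. Above the filter were also 2 of 8 fibroblast markers (COL1A1 and COL1A2), 0 of 4 leukocyte markers and 1 of 5 endothelial markers (PECAM1). The summed epithelial marker signal was 66599 to 97617 on miR21 arrays and 62083 to 114118 on control arrays, and the summed fibroblast signal 395 to 1339 on miR21 arrays and 422 to 1117 on control arrays. The arrays of number 1 stood apart from the rest: their median log2 signal over all probe sets was 6.87 (miR21) and 6.97 (control), whereas the other 4 arrays lay between 5.79 and 5.95. The ratio of the 5′ to the 3′ control probe signal of ACTB, a sign of RNA integrity, was 0.509, 0.301 and 0.737 on miR21 arrays 1 to 3, and 0.559, 0.347 and 0.775 on control arrays 1 to 3. For GAPDH the same ratio varied less, with 0.93, 1.05 and 1.08 on miR21 arrays and 0.93, 1.11 and 1.07 on control arrays. The part of these array properties in any value given here was not tested.

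The sequence shown is the mature 5p arm of miR-21, with its seed (bases 2 to 8, which pair with target transcripts) in capitals. RefSeq places it on GRCh38.p14 at chr17:59841273-59841294, plus strand, and the labels give neither the sequence nor the arm of the transfected precursor.
hsa-miR-21-5p: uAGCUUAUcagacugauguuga

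Promoter windows of the families, from 250 bases before to 50 after each annotated RefSeq start on GRCh38.p14, were searched for 7 short motifs on both strands. Windows were found for 64 of the tested genes (86 windows). The ETS-type motif CCGGAAG stood in 27.9% of these windows against 10.3% of all 35116 windows, the NRF1-type motif in 16.3% against 5.78%, and the E2F-type motif TTTNNCGC in 16.3% against 6.89%. The CCAAT box, searched as CCAAT, stood in 43% against 34.6%, the GC box GGGCGG in 55.8% against 45%, the E-box CACGTG in 10.5% against 7.26%, and the TATA box TATAAA in 6.98% against 11.5%. Matches can overlap, as the NRF1-type and E2F-type matches of SF3B1 do. Windows of 1 gene can overlap too, so 1 site can be counted more than once, as in SF3B1 and SNRPD2. The 24 ETS-type, 14 NRF1-type and 14 E2F-type windows of the families belonged to 21, 12 and 13 genes. The 35116 windows were not limited to tested genes. The motifs were chosen after the array values had been seen, and a match describes these letters only. The windows of all 3 SF3A genes hold the ETS-type motif, which stood in windows of 21 of the 64 genes. Among these were also SF3B6, HNRNPLL and PRPF18, with differences above 0, and SNRPA1 and SNRPD2, with differences below 0. For each SF3A gene, 1 match is printed with the motif in capitals and 10 bases on either side. Beside them stands 1 match each of LSM8 and LSM3, which stood at opposite ends of the LSM family. LSM8 also holds an NRF1-type match and an E2F-type match, beginning at -150 and -223 from the annotated start. LSM8 thus shares the E2F-type motif with LSM3, and the printed matches are not all the matches of these genes. The printed matches are written 5′ to 3′ on the strand of the gene, so that CTTCCGG is CCGGAAG on the other strand.
SF3A1, ETS-type, chr22:30356927-30356953, minus strand: ggggacggtcCCGGAAGtgcgccagtc
SF3A2, ETS-type, chr19:2236805-2236831, plus strand: ctcatttgccCCGGAAGtgctttcttt
SF3A3, ETS-type, chr1:37990074-37990100, minus strand: tcccggggcaCTTCCGGcactcgcgga
LSM8, ETS-type, chr7:118183965-118183991, plus strand: tcttacgaggCTTCCGGaacacggccc
LSM3, E2F-type, chr3:14178825-14178852, plus strand: ctcgcgagagGCGGGAAAgggcgcaggg
Of these matches, those of the SF3A genes and of LSM8 begin before the annotated start (offsets -9 for SF3A2, -49 for SF3A1, -68 for SF3A3 and -189 for LSM8), and that of LSM3 begins at offset 18, inside the transcribed region.

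All values below are log2 array signals or differences of log2 signals, miR21 minus control. Across the families the differences were small. The 72 genes ranged from -0.79 (SNRPD3) to 0.72 (SRSF12), with a median of 0.01 against -0.01 over all 12205 tested genes. limma without the block called 0 of the 72 at an adjusted p under 0.05, and 0% of all tested genes. At an unadjusted p under 0.05 stood 1 of the 72, SNRPD3 on the lower side, where 1.26% of all genes lay (1.18% on the higher side). With a block for the replicate number, 0 of the 72 genes were called by limma, and 0.0328% of all genes (4 genes). The smallest adjusted p among the 72 with the block was 0.113, that of SNRPD3. Since no family gene passed either test, differences are given below as values. The median size of the difference was 0.18 in the families and 0.25 over all genes, and the 90th percentile was 0.46 in the families against 0.73. Family genes were also brighter, with a median log2 level of 12.04 against 9.66, and their median standard error was 0.36 against 0.42. Signals of different probe sets are no measure of the relative RNA levels of different genes, and in bulk RNA fewer cells with a transcript and less of it per cell cannot be told apart.

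**Figure D1:**
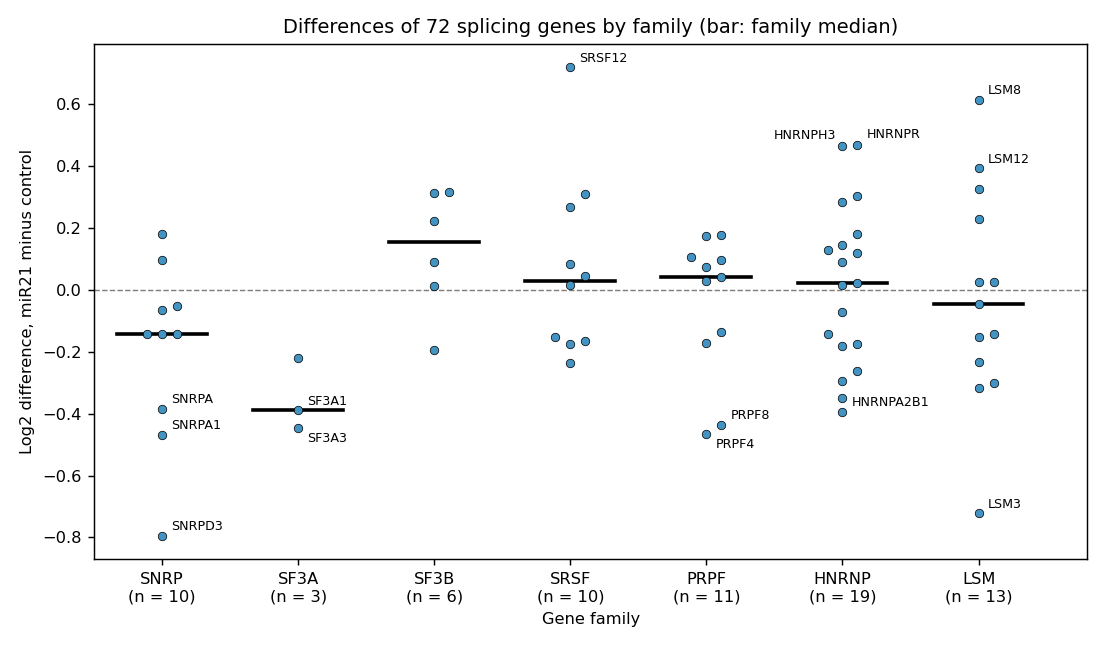
Log2 differences (vertical axis, miR21 minus control, mean of 3 arrays each) of the 72 tested genes by family, 1 point a gene, with the family median as a black bar. The 3 SF3A genes all lie below 0 (median -0.39) and 5 of the 6 SF3B genes above it (median 0.16), while SNRPD3, LSM3, LSM8 and SRSF12 lie farthest from 0.

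The SNRP genes encode the Sm proteins that form a ring on the U1, U2, U4 and U5 RNAs and a few proteins of single particles. Their median difference was -0.14, and 8 of the 10 tested were below 0. By number the family median was -0.24, -0.09 and -0.14 in numbers 1, 2 and 3. SNRPD3, one of the ring's D subunits, had log2 signals of 12.11, 12.445 and 13.13 on miR21 arrays 1 to 3, against 13.21, 13.34 and 13.52 on control arrays 1 to 3. Every miR21 array lay below every control array for SNRPD3, the only gene of the families on the lower side without overlap, a pattern shown by 3.27% of all tested genes. Its mean was 12.56 ± 0.52 with miR21 and 13.36 ± 0.16 with control (SD, n = 3 each), which is 1.73-fold lower (log2 difference -0.79, SE 0.32, limma adjusted p = 0.9999, and 0.113 with the block). The gene has 1 probe set, so its value has no second reading on the array. The differences of SNRPD3 were -1.10, -0.90 and -0.39 in numbers 1, 2 and 3.

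The other 6 ring genes did not share that size of difference. SNRPD2, the ring gene of highest signal, had 13.86, 14.99 and 14.93 on miR21 arrays and 14.19, 14.86 and 15.16 on control arrays. Its groups overlapped, and its difference was -0.14 (SE 0.40). SNRPB, SNRPD1, SNRPF and SNRPG lay between -0.14 and -0.05, and SNRPE at 0.10. Over the whole ring of 7 proteins the median was -0.14, with 6 genes below 0 on the mean but 3 of 7 below 0 in number 2.

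Proteins of single snRNPs gave mixed values. SNRPA, the U1 protein that binds a stem-loop of U1 RNA, had 11.31, 12.21 and 12.15 on miR21 arrays and 11.90, 12.67 and 12.24 on control arrays. Within each number the miR21 array was lower, by -0.59, -0.46 and -0.09, but the groups overlapped (difference -0.38, SE 0.36, limma adjusted p = 0.9999, and 0.216 with the block). SNRPA1, which partners SNRPB2 on U2 RNA, had 9.94, 11.18 and 11.86 on miR21 arrays and 10.44, 11.79 and 12.15 on control arrays. Here too the miR21 array was the lower one in each number, while the spread over numbers was larger than the difference of -0.47 (SE 0.61, limma adjusted p = 0.9999, and 0.159 with the block). All 4 of its probe sets above the filter were below 0. SNRPB2 itself differed by 0.18. The U1 gene SNRPC, left out of the families by the rule and given here as a description because its difference was already known, had 11.82, 12.22 and 12.61 on miR21 arrays and 10.51, 10.31 and 11.01 on control arrays, a difference of 1.61. Its SE was 0.33, and its limma adjusted p was 0.9999, and 0.0447 with the block. Like SNRPD3, SNRPC has 1 probe set. The other U1-specific genes did not share its direction: SNRPA stood at -0.38 and SNRNP70, which encodes the U1 70K protein, at -0.43. SNRNP70 had 11.54, 12.02 and 12.08 on miR21 arrays and 12.25, 12.30 and 12.37 on control arrays, without overlap (SE 0.27, limma adjusted p = 0.9999, and 0.187 with the block).

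SF3A1, SF3A2 and SF3A3 form a heterotrimer that helps the U2 snRNP settle on the branch point. All 3 were below 0, with a median of -0.39, the lowest of the 7 families. By number the median was -0.57, -0.33 and -0.005, with number 3 near 0. SF3A1, which contacts U1 and U2, had 10.71, 11.35 and 11.75 on miR21 arrays and 11.28, 11.85 and 11.84 on control arrays. Its difference was -0.39 (SE 0.36, limma adjusted p = 0.9999, and 0.215 with the block), and all 4 of its probe sets were below 0, between -0.39 and -0.23. SF3A3 had 9.68, 10.69 and 11.40 on miR21 arrays and 10.68, 11.02 and 11.40 on control arrays. Its difference of -0.45 (SE 0.46, limma adjusted p = 0.9999, and 0.270 with the block) came from number 1 (-0.997) and number 2 (-0.33), since number 3 gave -0.005. SF3A2, read from the brighter of 2 probe sets, had 10.62, 10.52 and 10.55 on miR21 arrays and 11.16, 10.83 and 10.35 on control arrays. Number 1 gave -0.54, number 2 gave -0.31 and number 3 gave 0.20, with a mean of -0.22 (SE 0.30, limma adjusted p = 0.9999, and 0.523 with the block).

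The SF3B complex, which joins SF3A in the U2 snRNP and holds the branch point, lay on the other side of 0 with a median of 0.16 (0.15, 0.19 and 0.03 by number). SF3B1, its largest subunit and the brightest of the family, was the exception. It had 12.71, 13.12 and 13.50 on miR21 arrays and 12.96, 13.51 and 13.46 on control arrays, a difference of -0.20 (SE 0.31, limma adjusted p = 0.9999, and 0.474 with the block). All 5 SF3B1 probe sets were below 0, from -0.65 to -0.20. SF3B3, a scaffold subunit, had 11.04, 11.10 and 11.62 on miR21 arrays and 10.67, 11.01 and 11.41 on control arrays. It was higher with miR21 in each number, by 0.37, 0.09 and 0.21 (difference 0.22, SE 0.32, limma adjusted p = 0.9999, and 0.396 with the block). SF3B6, the small subunit that touches the branch point adenosine, had 12.37, 13.35 and 13.11 on miR21 arrays and 11.97, 12.79 and 13.12 on control arrays. Its difference was 0.32 (SE 0.40), and its other probe set, of far lower signal, gave -0.38. A test of the SF3A against the SF3B median was not run, since the genes of a complex are not replicates.

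PRPF genes encode proteins of the U4/U6.U5 tri-snRNP and of later splicing steps. The family median was 0.04, and -0.21, -0.06 and -0.04 in numbers 1, 2 and 3. PRPF8, the scaffold of the catalytic centre, had 10.54, 10.80 and 11.32 on miR21 arrays and 11.22, 11.29 and 11.45 on control arrays. Only the third miR21 array reached into the control range, and the difference was -0.44 (SE 0.30, limma adjusted p = 0.9999, and 0.197 with the block). PRPF4, a U4/U6 protein, had 10.08, 10.93 and 11.79 on miR21 arrays and 10.81, 11.69 and 11.70 on control arrays. It was lower in numbers 1 and 2, by -0.74 and -0.76, and at 0.09 in number 3 (mean -0.47, SE 0.48, limma adjusted p = 0.9999, and 0.244 with the block). PRPF3, its partner on U4/U6, differed by -0.14, and PRPF6, which bridges the tri-snRNP, by -0.17. A dimmer PRPF6 probe set gave 0.26.

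The remaining PRPF genes lay between 0.03 and 0.18. PRPF18, which acts in the second catalytic step, had 9.56, 10.21 and 9.99 on miR21 arrays and 9.28, 9.93 and 10.03 on control arrays (difference 0.18, SE 0.34). PRPF31, another U4/U6 protein and the brightest of the family, had 11.42, 11.88 and 12.25 on miR21 arrays and 11.29, 11.83 and 12.14 on control arrays. Its differences of 0.12, 0.05 and 0.12 by number were all within the overlap of the groups. A dimmer PRPF31 probe set had the opposite sign in each number, with -0.19, -0.05 and -0.19. PRPF39 and PRPF38B took opposite signs between numbers: PRPF39, named for a U1 factor of yeast, differed by -0.42, -0.58 and 1.12 in the 3 numbers in turn, and PRPF38B by -0.48, -0.28 and 0.98. Means near 0 (0.04 and 0.07) thus stand for opposite values in these 2 genes.

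Within the LSM family, the proteins LSM2 to LSM8 form the ring on U6 RNA, and a cytoplasmic ring with LSM1 in place of LSM8 starts the decay of mRNA. The 7 genes of the U6 ring had a median of -0.23, with 5 below 0. LSM3 had 11.08, 12.23 and 13.02 on miR21 arrays and 12.19, 13.01 and 13.29 on control arrays. It was lower with miR21 in each number (-1.11, -0.78 and -0.27), although levels differed so far between numbers that the groups overlapped. The mean difference was -0.72, or 1.65-fold lower (SE 0.53, limma adjusted p = 0.9999, and 0.128 with the block). LSM8, which makes the ring nuclear, lay on the opposite side. It had 12.03, 11.16 and 10.38 on miR21 arrays and 11.33, 10.43 and 9.96 on control arrays. The miR21 array was higher in each number, by 0.70, 0.73 and 0.41, and the mean difference was 0.61, or 1.53-fold higher (SE 0.52, limma adjusted p = 0.9999, and 0.127 with the block). All 4 LSM8 probe sets were above 0, from 0.26 to 0.80. LSM7, the brightest LSM gene, had 11.68, 12.85 and 13.03 on miR21 arrays and 12.28, 13.05 and 13.18 on control arrays, a difference of -0.32 (SE 0.44) and below 0 in each number. LSM4 and LSM2 were likewise lower in each number, with means of -0.30 and -0.23.

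**Figure D2:**
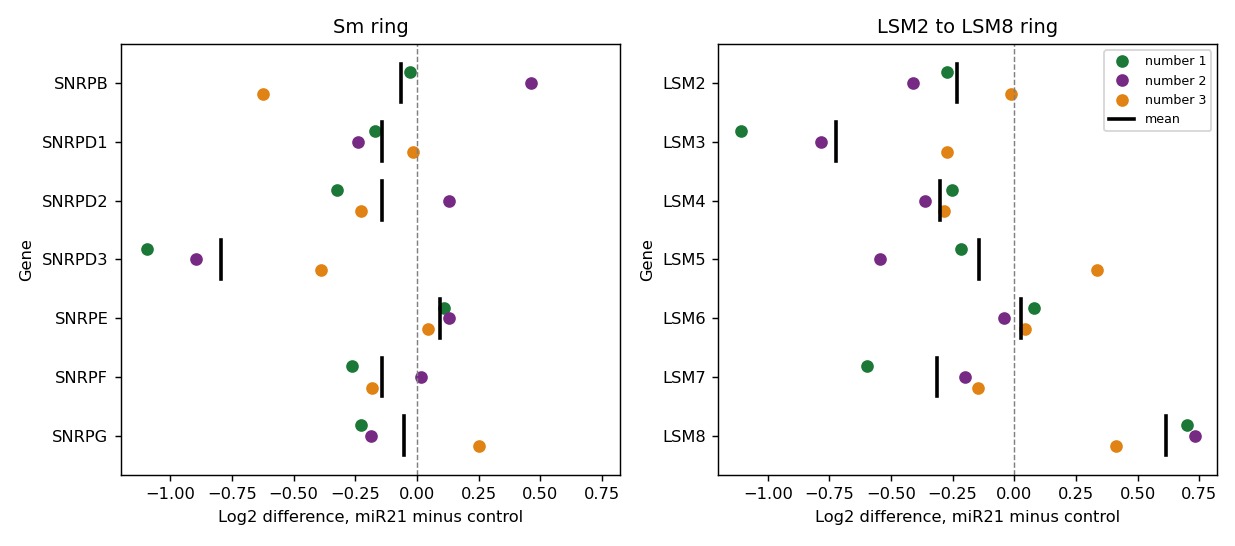
Log2 differences (horizontal axis, miR21 minus control) within replicate numbers 1, 2 and 3 (coloured points) and their mean (black bar) for the 7 Sm ring genes (left) and LSM2 to LSM8 (right). SNRPD3 (mean -0.79) and LSM3 (mean -0.72) lie farthest below 0 in their rings, and LSM8 (mean 0.61) is the 1 ring gene far above 0.

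The other 6 LSM genes had a median of 0.13. LSM12, an LSM-domain protein outside the rings, had 12.11, 12.18 and 12.08 on miR21 arrays and 11.69, 11.75 and 11.74 on control arrays. The groups did not overlap and LSM12 varied little within them, with 12.12 ± 0.05 in miR21 cells and 11.73 ± 0.03 in control cells (SD, n = 3 each). Its difference of 0.39, or 1.31-fold higher, had an SE of 0.24 from limma, which draws the spread of each gene towards that of genes of like signal (limma adjusted p = 0.9999, and 0.173 with the block). Its dimmer probe set gave 1.01, 1.35 and -0.15 in numbers 1, 2 and 3. LSM12 was 1 of 2 genes of the families without overlap on the higher side, where 3.38% of all tested genes lay, and the other was HNRNPLL. LSM1 differed by 0.23, LSM14A, a protein of cytoplasmic processing bodies, by 0.33, and the U7 snRNP genes LSM10 and LSM11, which serve histone mRNA, by 0.03 and -0.15.

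SR proteins gave a family median of 0.03 (0.01, 0.14 and -0.06 by number). SRSF12, known as an antagonist of other SR proteins, had 9.07, 9.73 and 9.33 on miR21 arrays and 8.20, 8.65 and 9.12 on control arrays. Just 1 miR21 array lay below the highest control array, and the difference of 0.72, or 1.65-fold higher (SE 0.36, limma adjusted p = 0.9999, and 0.167 with the block), was the highest of the 72. Its array signal was the lowest of the SR genes, and its other probe set gave -0.01. SRSF6, an activator of many exons, had 12.22, 12.95 and 12.45 on miR21 arrays and 11.89, 12.53 and 12.39 on control arrays, a difference of 0.27 (SE 0.32). SRSF10, which becomes a repressor when dephosphorylated, had 10.91, 10.98 and 11.25 on miR21 arrays and 11.13, 11.10 and 11.44 on control arrays, a difference of -0.18 (SE 0.27). The dimmest SRSF10 probe set gave 0.11. SRSF3, the smallest SR protein and the brightest of the family, had 13.44, 14.40 and 14.45 on miR21 arrays and 13.45, 14.24 and 14.56 on control arrays. Its groups spanned the same range (difference 0.01, SE 0.40). On their brightest probe sets the remaining SR genes lay between -0.24 (SRSF5) and 0.31 (SRSF8). SRSF1, the best-known SR protein, stood at 0.08, but its 8 probe sets ran from -0.24 to 0.76. SRSF11 stood at -0.15, while its dimmest probe set above the filter gave -1.58 (-2.45, -2.07 and -0.22 by number).

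The HNRNP family, the largest with 19 genes, had a median of 0.02 (0.14, 0.04 and -0.02 by number), with 11 genes above 0 and 8 below. HNRNPH3, which binds runs of G, had 12.78, 12.39 and 12.16 on miR21 arrays and 12.18, 12.14 and 11.63 on control arrays. It was higher with miR21 in each number, by 0.60, 0.26 and 0.54, with 1 miR21 array inside the control range (difference 0.46, SE 0.30, limma adjusted p = 0.9999, and 0.157 with the block), and all 4 of its probe sets were above 0. HNRNPLL, known for exon choice in CD45 transcripts of lymphocytes, had 11.61, 11.84 and 11.58 on miR21 arrays and 11.14, 11.41 and 11.56 on control arrays. The groups were apart by the small gap between miR21 array 3 and control array 3 (0.02), and the difference was 0.30 (SE 0.27, limma adjusted p = 0.9999, and 0.295 with the block). The dimmest HNRNPLL probe set gave -0.14. HNRNPA0, a relative of the abundant A1 protein, had 12.50, 12.07 and 11.89 on miR21 arrays and 12.72, 12.42 and 12.20 on control arrays. The difference of -0.29 (SE 0.29, limma adjusted p = 0.9999, and 0.253 with the block) had the same sign in each number. The dimmest HNRNPA0 probe set gave 0.03. HNRNPU, a protein of the nuclear matrix and the brightest of the family, had 14.08, 14.89 and 14.74 on miR21 arrays and 13.92, 14.55 and 15.17 on control arrays, a difference of 0.02 (SE 0.38).

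Of the HNRNP genes not singled out by p or signal, HNRNPA2B1, which is known to sort certain microRNAs into exosomes, differed by -0.52, -0.54 and -0.12 in numbers 1, 2 and 3 (mean -0.39, SE 0.47). Its probe sets did not share a sign. The second brightest, with a mean log2 signal of 12.63 against 13.20, was higher with miR21 in each number, by 0.26, 0.07 and 0.05 (mean 0.13). A dimmer one gave -0.23. HNRNPD, known as AUF1 for its binding to AU-rich elements of unstable transcripts, differed by -0.35, and its 6 probe sets above the filter were all below 0. HNRNPR, a relative of SYNCRIP, differed by 0.47 on the mean, most of it from number 3 (0.23, 0.11 and 1.06). HNRNPA1 and HNRNPC, 2 of the most abundant nuclear RNA-binding proteins, stood at -0.14 and 0.09.

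**Figure D3:**
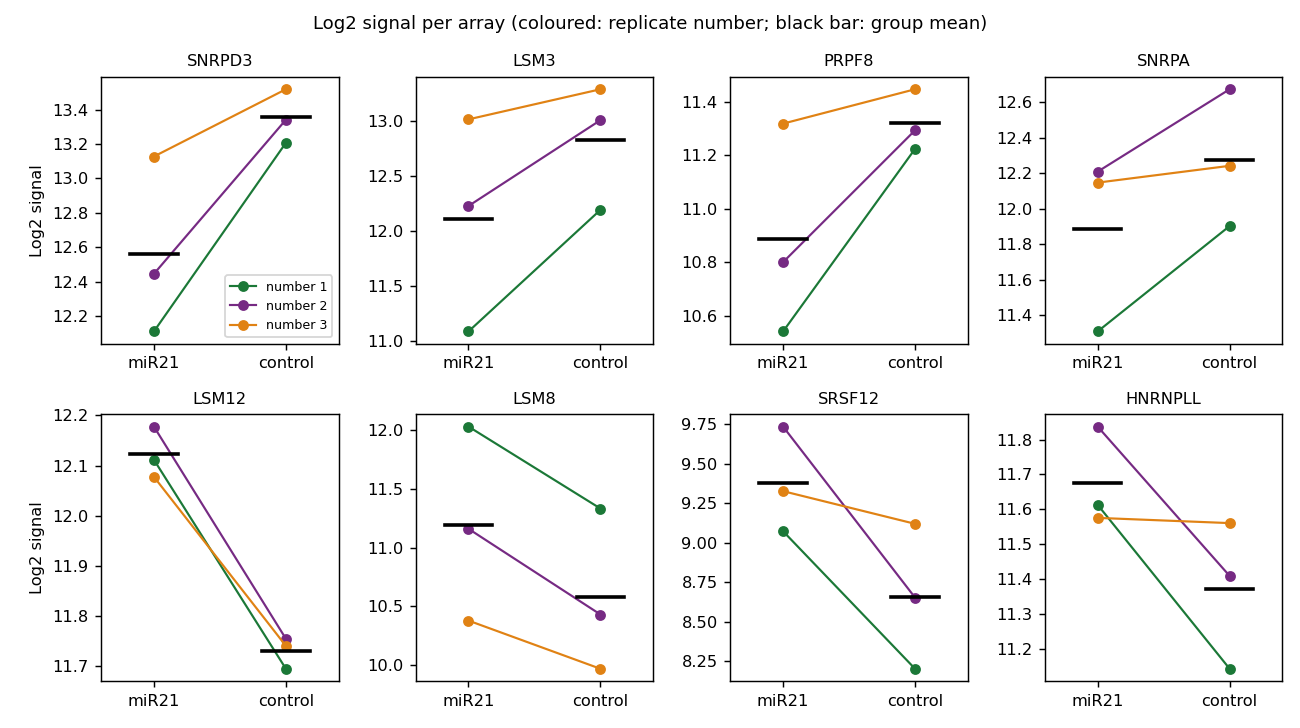
Log2 signal (vertical axis, a separate range for each gene) of 8 genes on miR21 (left) and control (right) arrays, with lines joining arrays of 1 replicate number and black bars at the group means. The upper 4 genes are lower with miR21 in each number and the lower 4 higher, and the groups do not overlap for SNRPD3, LSM12 and HNRNPLL.

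Counted over the families, 17 genes (23.6%) were higher with miR21 in all 3 numbers, where 20.3% of all tested genes were, and 19 (26.4%) were lower in all 3, where 20.9% of all genes were. Both shares lay close to those of the whole array. Among SF3B genes 3 of 6 were higher in all 3 numbers and 0 lower, among SNRP genes 1 of 10 was higher and 4 lower, and the HNRNP (5 and 5) and LSM (4 and 4) genes were even. With the block, 4 of the 72 genes were higher at an unadjusted p under 0.05 and 10 lower, against 9.82% and 10.3% of all genes, which is 5.56% and 13.9% of the families.

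The numbers did not give the same differences. Across the 72 genes, which share the same arrays, the differences of numbers 1 and 2 had r = 0.818, those of numbers 1 and 3 r = 0.218, and those of numbers 2 and 3 r = 0.024. Over all 12205 genes the same 3 values were 0.696, 0.159 and 0.076, so the order was that of the whole array. The 72 genes had a median size of difference of 0.27, 0.29 and 0.18 in numbers 1, 2 and 3, against 0.34, 0.38 and 0.20 over all genes. A difference of more than 1 on the log2 scale was seen in 2, 1 and 2 of the 72 genes, against 1252, 1532 and 397 of all genes.

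**Figure D4:**
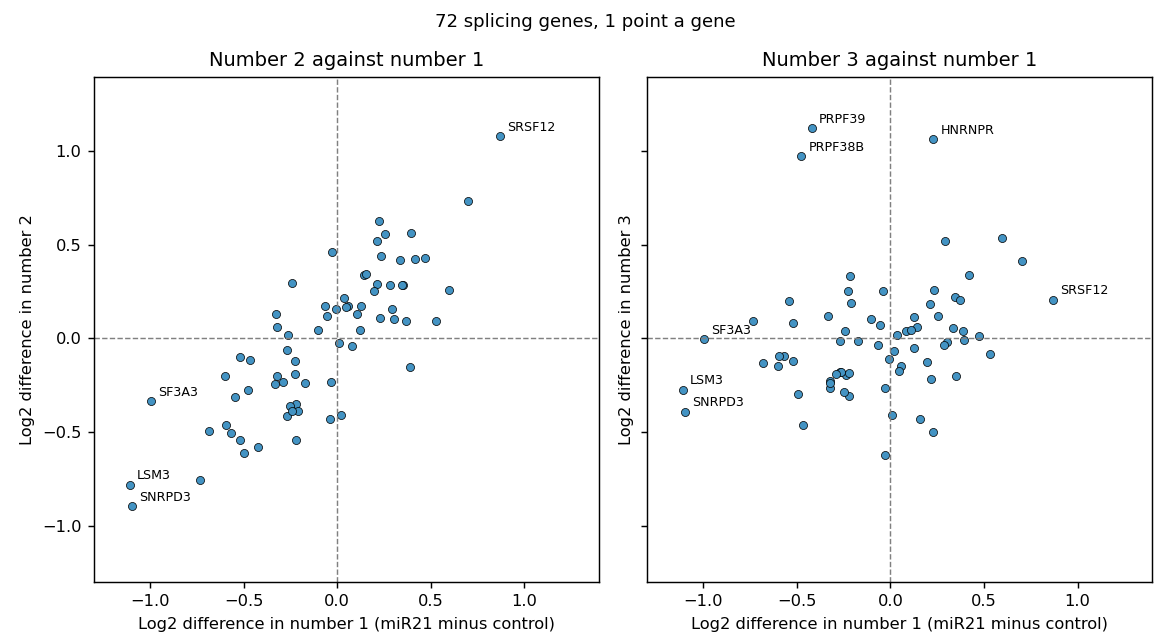
Log2 differences (miR21 minus control) of the 72 genes in number 2 (left, vertical axis) and number 3 (right, vertical axis) against those in number 1 (horizontal axes). The left points run along the diagonal (r = 0.818), whereas the right points scatter (r = 0.218), with PRPF39, PRPF38B and HNRNPR high in number 3.

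The calls depended on number 3. With the block and numbers 1 and 2 alone, limma called 21 of the 72 genes at an adjusted p under 0.05, 9 higher and 12 lower, against 15.9% of all tested genes higher and 16.9% lower. Only 2 pairs enter that fit, and it takes the spread of each gene almost wholly from the other genes. Of the 21 genes, 16 had the same sign in number 3, which the choice did not use (7 of 9 higher and 9 of 12 lower). The same share was not counted over all called genes, so this count has no background to be read against. Some signs rest on values near 0 in number 3: SF3A3 (-0.005) and HNRNPLL (0.015) of the same sign, and SF3B6 (-0.006) of the opposite sign. SNRPD3 (-0.997, adjusted p = 3.66e-08), LSM3 (-0.95, adjusted p = 1.13e-07) and PRPF4 (-0.75, adjusted p = 3.67e-05) led the lower side of that limma fit. LSM8 (0.72, adjusted p = 3.80e-05) and SRSF12 (0.98, adjusted p = 0.000428) led the higher side. All 3 SF3A genes were on the lower side, and SF3B4 and SF3B6 on the higher. The 5 genes of opposite sign in number 3 were PRPF4, SF3B6, SF3A2, HNRNPK and LSM5. Without number 1, or without number 2, the block fit called 0 of the 72.

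Levels also varied between replicate numbers. In 68 of the 72 genes (94.4%) the span of the mean level over the 3 numbers exceeded the size of the treatment difference, and in 88.7% of all tested genes. A span of 3 means, each over 2 arrays, tends to exceed a difference of 2 means, each over 3 arrays, even from noise alone. These shares therefore do not show which of the 2 sources of spread is larger. SRSF11, a regulatory SR-like protein, had 12.52, 8.19 and 8.25 on miR21 arrays 1 to 3 and 12.51, 8.60 and 8.32 on control arrays 1 to 3. On this probe set number 1 was far above the others in both groups, by 4.18 with the treatments averaged. The dimmer SRSF11 probe sets above the filter gave 1.97 and 1.03. HNRNPH1, which binds runs of G like HNRNPH3, had 13.93, 10.92 and 11.07 on miR21 arrays and 13.97, 11.35 and 10.82 on control arrays (2.92). Its dimmer probe sets above the filter did not share a sign, with 2.65 and -0.56. PRPF39 (2.89), SF3B4 (1.98) and LSM5 (1.90) followed on the high side of number 1. On the low side stood SF3B2 (-1.80), PRPF19, the ubiquitin ligase of the splicing complex named after it (-1.76), and SNRPA1 (-1.55). By more than 1 on the log2 scale, 11 genes (15.3%) were higher in number 1 and 9 (12.5%) lower, against 18.6% and 12.8% of all tested genes. The median of the families was -0.48, below the -0.04 of all genes.

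**Figure D5:**
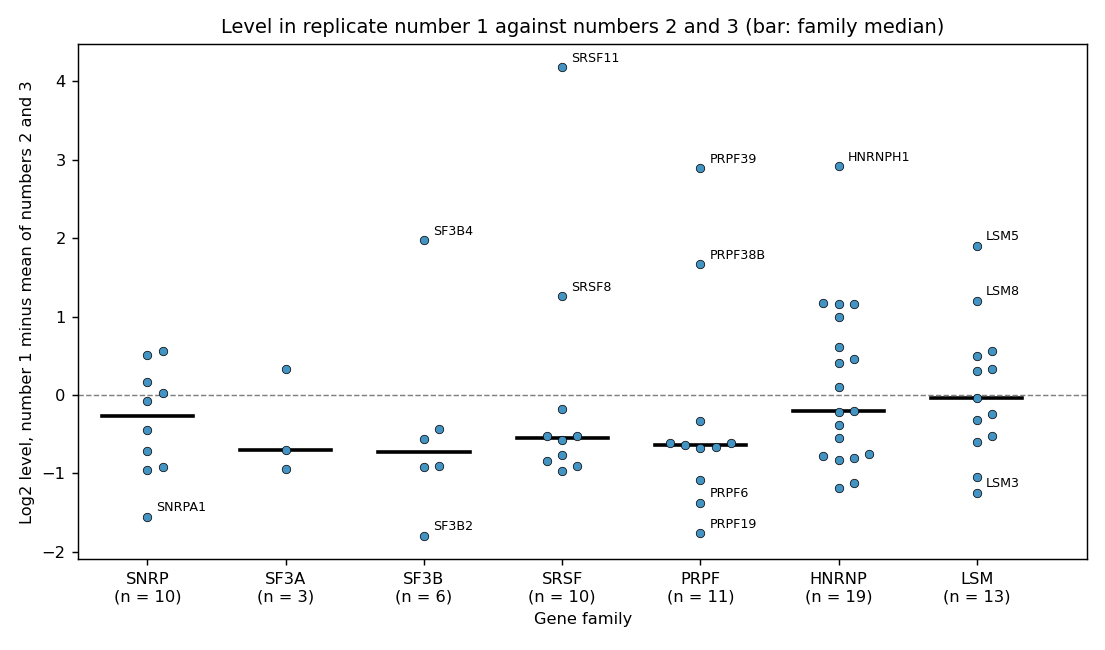
Log2 level in replicate number 1 minus the mean of numbers 2 and 3 (vertical axis, both treatments averaged) for the 72 genes by family, with family medians as black bars. SRSF11 (4.18), HNRNPH1 (2.92) and PRPF39 (2.89) stand highest and SF3B2 (-1.80) lowest.

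Probe sets of 1 gene did not always agree on that level. In 6 genes, HNRNPD, HNRNPR, SF3B1, SF3B2, SNRPA1 and SRSF1, 1 probe set was over 1 log2 unit higher in number 1 and another over 1 unit lower. SNRPA1 ran from -1.71 to 2.44 and SF3B2 from -1.80 to 2.84. For the treatment, 50 genes had 2 or more probe sets above the filter, and in 30 of them all differences had 1 sign (13 higher, 17 lower). Probe sets of 1 gene share their arrays and overlap in sequence to an unknown degree, so they are no replicates. All arrays lay within a factor of 2 of each other in 29 of the 72 genes.

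Genes that work with the families were counted in 6 lists. limma called none of their genes, with or without the block, as it called 0% of all tested genes without it. Other snRNP and U2 auxiliary genes (24 tested) had a median of -0.21. In all 3 numbers 11 (45.8%) of them were lower and 2 (8.33%) higher, where 20.9% and 20.3% of all tested genes were. DDX23, the U5 helicase that frees the 5′ splice site, had the smallest p of that list, with 9.71, 10.12 and 10.64 on miR21 arrays and 10.505, 10.75 and 10.91 on control arrays (difference -0.57, SE 0.33). Genes of the PRP19 complex, the catalytic step and the exon junction complex (25 tested) had a median of 0.10. Of these, 3 (12%) were lower and 9 (36%) higher in all 3 numbers. DHX8, the helicase that releases spliced mRNA, differed by -0.76 (SE 0.47) and ISY1 by -0.40 (SE 0.28), both against the direction of their list's median.

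SR-related proteins and SR protein kinases (19 tested) had a median of -0.14, with SRRM1, an SR-related coactivator, at -0.30 and the kinase DYRK1A at 0.31. In all 3 numbers 3 (15.8%) were lower and 2 (10.5%) higher. Other splicing regulators that bind RNA (27 tested) had a median of -0.06, with 5 (18.5%) lower and 4 (14.8%) higher in all 3 numbers. There SFPQ, a paraspeckle protein, had 12.02, 11.75 and 12.59 on miR21 arrays and 12.998, 12.72 and 12.58 on control arrays (difference -0.65, SE 0.31). ESRP1, a regulator of epithelial exons, had 8.86, 10.29 and 7.31 on miR21 arrays and 6.52, 8.19 and 7.42 on control arrays (difference 1.44, SE 0.78). In number 3 the differences were 0.01 for SFPQ and -0.11 for ESRP1, well short of those in numbers 1 and 2. The snRNP assembly genes (18 tested) had a median of -0.10, with the import adaptor SNUPN at -0.45 and GEMIN7, of the SMN complex, at 0.39. Of these, 6 (33.3%) were lower and 2 (11.1%) higher in all 3 numbers. Decay partners of the LSM ring (8 tested) had a median of -0.06, with the helicase DDX6 at 0.28 and the decapping factor DCP1A at -0.21. In all 3 numbers 1 (12.5%) was lower and 2 (25%) higher.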

How the data were processed

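Biotin-labelled RNA of transfected SKOV3 cells was read on Affymetrix U133 Plus 2.0 arrays, per the labels' protocols. The authors deposited 1 linear intensity per probe set and array, made with MAS5 per the submitters' processing notes, with version and settings not given in the sources used here. Every array has a mean of 500 once the outer 2% on either side are trimmed, so the scaling would hide a shift common to most genes. Log2 signals were compared with limma 3.58.1 (R 4.3.3, moderated by eBayes with a variance trend, two-sided, Benjamini-Hochberg over all tested genes, threshold 0.05), without a pseudocount. Of the 54675 probe sets, 41091 name 1 gene, 1801 several and 11721 none used here, and 62 are controls. Each gene was read from its brightest probe set, and a gene was tested if its mean log2 signal was above the median of all probe sets (6.03, a signal of 65.5), which kept 12205 of 19775 genes. The steps were tested on simulated data.

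The family genes and lists were chosen with earlier results of these data known. Values per array were given for the 3 genes of smallest p and the brightest gene of each family (26 genes), and for the 2 genes of smallest p of each list where shown. Pairing follows the numbers in the sample titles. The deviations of same-numbered arrays from their group means had r = 0.899, 0.638 and 0.635 over all tested genes (threshold 0.1). Unlike-numbered arrays passed that threshold too, at lower values: r was 0.411 for miR21 array 2 with control array 3, and 0.283 for miR21 array 3 with control array 2. Passing the threshold therefore does not by itself show how numbers 2 and 3 pair. Other genes, such as those with large spans over numbers, were named after their values were seen. The labels do not say that replicates came from separate cultures, so p-values measure only the spread between these arrays, which may be technical, and the number of arrays limits the precision. Alternatives were quantile normalization, median centring, an offset of 16, other filters and probe set rules, no variance trend, the replicate block and leaving out arrays.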

Additional observations from a re-analysis of the deposited data

How the results depend on the processing

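The count of 0 called genes, over all tested genes and over the families, held under quantile normalization, median centring, an offset of 16 before the log, both other filters, no variance trend, both other probe set rules and each array left out (0 to 0). The replicate block, which pairs the arrays, called 4 genes and none of the families, and with 1 number left out it called 0 to 4004 genes (59 without number 1) and 0 to 21 family genes. It changed no other call. Family medians, given as values, moved with 3 settings, and the cause was not tested beyond the shift that centring itself makes. Median centring raised the median of all genes by 0.10 and gave -0.042 for SNRP, -0.29 for SF3A, 0.26 for SF3B, 0.13 for SRSF, 0.14 for PRPF, 0.12 for HNRNP and 0.054 for LSM, whose sign it turned. The mean of all probe sets of a gene gave 0.029 for SF3B, -0.075 for SRSF and -0.18 for HNRNP. Probe sets without the x or s suffix gave -0.23 for SF3A, -0.11 for SRSF and -0.18 for HNRNP. With 1 array left out and no block, the medians ran from -0.25 to -0.085 (SNRP), -0.63 to -0.11 (SF3A), -0.10 to 0.37 (SF3B), -0.14 to 0.21 (SRSF), -0.15 to 0.30 (PRPF), -0.062 to 0.12 (HNRNP) and -0.14 to 0.11 (LSM). With the block and 1 number left out they ran from -0.25 to -0.08 (SNRP), -0.54 to -0.17 (SF3A), 0.11 to 0.18 (SF3B), -0.01 to 0.05 (SRSF), -0.17 to 0.06 (PRPF), -0.01 to 0.12 (HNRNP) and -0.05 to 0.02 (LSM). Of the 26 genes given per array, SF3B6 (-0.032) and PRPF18 (-0.54) turned sign with the mean of all probe sets and SRSF3 (-0.16) with the suffix rule. Leaving out 1 array turned SNRPA1 (-0.98 to 0.057), SNRPD2 (-0.42 to 0.22), SF3A3 (-0.85 to 0.0086), SF3B6 (-0.010 to 0.60), SF3B1 (-0.39 to 0.0032), SRSF3 (-0.30 to 0.34), PRPF18 (-0.055 to 0.36), PRPF31 (-0.13 to 0.31), HNRNPU (-0.29 to 0.33) and LSM7 (-0.59 to 0.11), and with the block also SRSF3 (-0.058 to 0.076) and HNRNPU (-0.14 to 0.25, and -0.044 without number 1). The rest of the 26 kept their sign, among them SNRPD3 (-1.08 to -0.57), LSM3 (-1.18 to -0.21), LSM8 (0.19 to 1.02) and LSM12 (0.36 to 0.41).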
